A study of Mus musculus with 6 samples.

Results

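The 8 genes Itgal, Itgam, Itgb2, Itgb7, Selplg, Icam1, Pecam1 and F11r encode integrins and other adhesion molecules of leukocytes, and they were chosen by name from 53774 named lines of a deposited table of gene expression. All 8 were measured. The libraries came from macrophages of mice, sorted by CD45 and F4/80 from skeletal muscle at day 3 after barium chloride injury. The mice meant to lose Manf were Cx3cr1-CreER, Manf fl/fl animals given tamoxifen (3 libraries, called Tamoxifen 1 to 3), which induces deletion of Manf, a protein of the endoplasmic reticulum. The control mice had the same genotype and were given oil (3 libraries, called Oil 1 to 3). The recombinase and the floxed alleles were therefore carried in both groups, and effects of the drug itself and of the deletion cannot be told apart. Deletion is limited to cells that use the Cx3cr1 promoter, and the labels give neither the age of the mice nor the mouse behind each library, so the spread that p-values measure here may be technical.

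Leukocytes leave the blood in steps. The selectin ligand PSGL-1 lets them roll along the vessel wall, β2 integrins then bind Icam1 and related ligands to hold them firmly, and Pecam1 and junctional adhesion molecules guide them between endothelial cells. An integrin is a pair of 1 α and 1 β chain, and the β chain Itgb2 (CD18) pairs with Itgal to form LFA-1, with Itgam (CD11b) to form Mac-1, with Itgax (CD11c) and with Itgad. Macrophages that enter injured muscle derive largely from blood monocytes and use these molecules on the way.

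Promoter sequence from RefSeq (GRCm38.p6) is shown for 4 of the 8 genes, as the 250 bases before the start site on the strand of the gene: for Itgam and Itgb7, whose levels were higher with tamoxifen, for F11r, whose level was lower, and for Icam1, whose groups overlapped. Capitals mark GAGGAA or its reverse complement TTCCTC, the core of sites for the myeloid factor PU.1, in Itgam and F11r, and GGAAATTCC, known from the human ICAM1 promoter as a site for NF-kB, in Icam1. The windows are chr7:128062390-128062639 (plus strand) for Itgam, chr15:102231936-102232185 (minus strand) for Itgb7, chr1:171437311-171437560 (plus strand) for F11r and chr9:21015690-21015939 (plus strand) for Icam1.
Itgam: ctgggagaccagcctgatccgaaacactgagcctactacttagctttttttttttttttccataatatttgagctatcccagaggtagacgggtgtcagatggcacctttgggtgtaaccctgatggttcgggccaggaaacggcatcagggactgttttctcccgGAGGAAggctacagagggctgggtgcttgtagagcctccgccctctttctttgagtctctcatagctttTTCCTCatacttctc
Itgb7: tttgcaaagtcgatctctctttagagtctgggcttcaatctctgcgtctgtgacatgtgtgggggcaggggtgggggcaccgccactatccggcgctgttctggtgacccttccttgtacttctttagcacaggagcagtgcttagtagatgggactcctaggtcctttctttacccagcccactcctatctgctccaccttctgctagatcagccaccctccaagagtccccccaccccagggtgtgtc
F11r: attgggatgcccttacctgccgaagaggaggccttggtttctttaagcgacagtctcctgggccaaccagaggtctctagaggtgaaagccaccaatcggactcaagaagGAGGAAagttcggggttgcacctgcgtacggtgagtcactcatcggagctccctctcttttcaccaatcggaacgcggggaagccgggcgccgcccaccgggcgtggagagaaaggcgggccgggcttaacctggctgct
Icam1: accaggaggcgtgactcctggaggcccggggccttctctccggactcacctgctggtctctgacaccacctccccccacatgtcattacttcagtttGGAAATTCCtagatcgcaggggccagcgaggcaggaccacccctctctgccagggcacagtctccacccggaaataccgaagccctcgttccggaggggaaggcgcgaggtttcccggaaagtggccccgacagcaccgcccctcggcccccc

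In these windows the PU.1 core stood on the gene's strand 84 bases before the start of Itgam and on the opposite strand 15 bases before it, and on the gene's strand 140 bases before the start of F11r. Searched on both strands in the same way, these letters were found in 23.3% of 32851 promoter windows, so their presence does not set the genes apart. The NF-kB letters stood 153 bases before the start of Icam1 and were found in 0.286% of windows. Distances are counted from the RefSeq start that bounds each window. For Itgb7, F11r and Icam1 this start differs from the gene coordinates given below. The marked stretches did not overlap each other, and neither set of letters was in the window of Itgb7. A match of letters is a description and no evidence of binding.

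Each library held between 18120333 and 25544666 reads, as recovered from the values. Manf, the gene to be deleted, overlapped between the groups and was at 18.1, 42.5 and 38.0 FPKM (fragments per kilobase of gene, scaled to the depth of the library) in Tamoxifen 1, 2 and 3, against 29.5, 33.0 and 31.4 FPKM in Oil. The levels of Manf thus go against the label in 2 of the 3 libraries labelled tamoxifen. Whole-gene FPKM also counts exons outside the deleted part, which the labels do not name, so it cannot check the deletion, and directions below hold for libraries by their label. On the first principal component, with 67.7% of the variance, Tamoxifen 1 stood at -6.80, Tamoxifen 2 and 3 at 34.3 and 22.1, and the Oil libraries between -22.5 and -13.5, so results are also given without Tamoxifen 1. That fit leaves out the only Tamoxifen library with Manf below Oil. The log2 fold change of Manf was -0.02 with an SE of 0.29 (limma-trend adjusted p = 0.976, n = 3 per group). Without Tamoxifen 1 it was 0.35 (limma-trend adjusted p = 0.0214), so Manf was called higher with tamoxifen there. The gene behind the CreER construct, Cx3cr1, stood at 31.3, 9.82 and 24.6 FPKM in Tamoxifen 1, 2 and 3, against 51.7, 42.7 and 51.0 FPKM in Oil, lower in every Tamoxifen library. Its log2 fold change was -1.25 with an SE of 0.38 (limma-trend adjusted p = 0.154, n = 3 per group), and -1.57 without Tamoxifen 1 (limma-trend adjusted p = 0.0179). The sort genes Adgre1 (304 to 369 FPKM with tamoxifen and 329 to 384 FPKM in Oil) and Ptprc (34.4 to 46.9 FPKM and 47.4 to 54.5 FPKM) were well expressed in every library. Across all 10920 genes that averaged 1 FPKM or more, limma-trend called 0 genes (0%) at an adjusted p under 0.05, while 2723 genes (24.9%) had an unadjusted p under 0.05. Limma-voom on recovered reads called 0 (0%) and had 2570 genes (25.9%) under that unadjusted p.

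Of the 8 adhesion genes 0 passed over all genes, so their levels and fold changes stand as values. For 3 members, Itgb2, Itgam and Itgb7, all Tamoxifen libraries lay above all Oil libraries, and for 2, Itgal and F11r, all lay below. Such a separation was seen in 29.9% of all genes tested, 16.2% upward and 13.8% downward. These 5 members also had an unadjusted p under 0.05. The other 3, Icam1, Selplg and Pecam1, had overlapping groups. When Tamoxifen 1 was left out, the same 5 members passed over all genes, 3 higher and 2 lower, where 31.9% of all genes tested did, 17.4% higher and 14.5% lower. Tamoxifen 1 was singled out from these same data, as the Tamoxifen library nearest to Oil on the first principal component. The p-values without it, here and below, follow that choice and cannot be read as separate tests. Leaving out any other library gave 0 members. In bulk libraries like these, fewer cells of a type and less RNA per cell cannot be told apart.

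**Figure D1:**
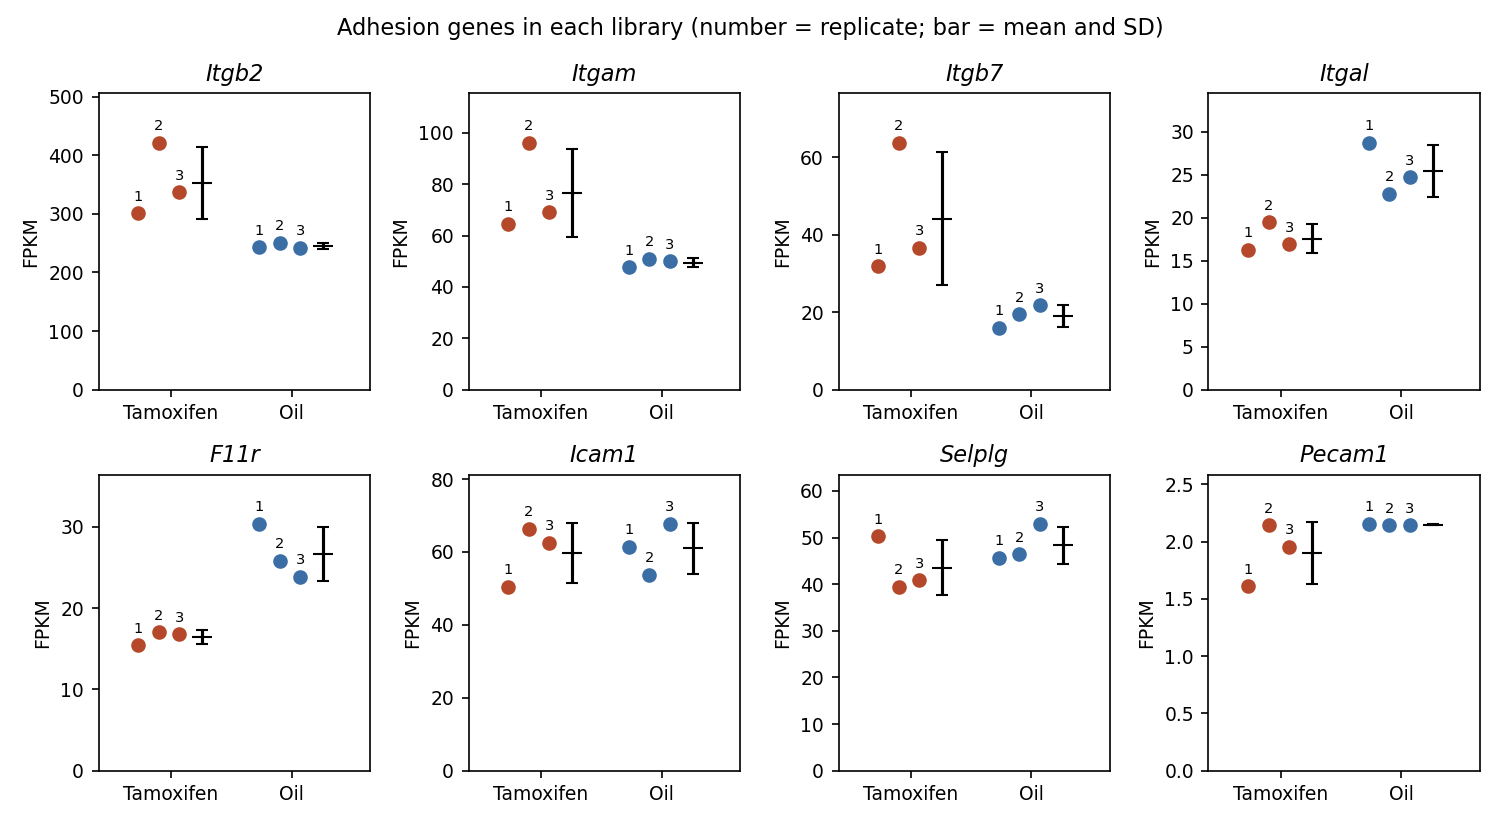
FPKM of the 8 adhesion genes in each library, with tamoxifen left of oil in each panel. Points are libraries numbered by replicate, and bars are the mean and SD of 3 libraries. Itgb2, Itgam and Itgb7 lie higher in all 3 Tamoxifen libraries, Itgal and F11r lie lower, and the groups overlap for Icam1, Selplg and Pecam1.

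Itgb2, the β chain shared by LFA-1 and Mac-1 (chromosome 10, 77530252 to 77565708, plus strand, GRCm38), was the most abundant member and stood above 98.8% of the genes tested. It was at 302, 421 and 337 FPKM in Tamoxifen 1, 2 and 3, against 243, 251 and 242 FPKM in Oil 1, 2 and 3. The Oil libraries lay close together, and even the lowest Tamoxifen library, Tamoxifen 1, was above them. The log2 fold change was 0.51 with an SE of 0.13 (limma-trend adjusted p = 0.148, n = 3 per group), and without Tamoxifen 1 it was 0.62 (limma-trend adjusted p = 0.00802).

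Itgam encodes CD11b, the α chain of Mac-1, which binds Icam1, fibrinogen and the complement fragment iC3b (chromosome 7, 128062640 to 128118491, plus strand). It was at 64.6, 96.1 and 69.0 FPKM in Tamoxifen 1, 2 and 3, against 47.6, 50.9 and 49.99 FPKM in Oil 1, 2 and 3. As for Itgb2, Tamoxifen 2 was the highest library and the Oil libraries differed little, with a coefficient of variation of 22.3% with tamoxifen and 3.46% in Oil. The log2 fold change was 0.60 with an SE of 0.15 (limma-trend adjusted p = 0.148, n = 3 per group), and 0.71 without Tamoxifen 1 (limma-trend adjusted p = 0.0128). The name Itgam stood on a second line as well, with between 0.0321 and 0.207 FPKM. The first line gave whole reads in all 6 libraries with the exon length of Itgam (5024 bases), and the second with that of the overlapping gene Gm49368 (4803 bases), where it held between 3 and 18 reads. The first line was therefore taken as Itgam, and how reads in the overlap were assigned was not given in the sources used here.

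Itgb7, the β chain of the gut-homing integrin α4β7 and of αEβ7 (chromosome 15, 102215995 to 102231944, minus strand), had the largest fold change of the 8. It was at 31.8, 63.8 and 36.7 FPKM in Tamoxifen 1, 2 and 3, against 16.1, 19.5 and 21.8 FPKM in Oil 1, 2 and 3. The mean with tamoxifen was 2.31 times that in Oil, and Tamoxifen 2 was set well apart from the other Tamoxifen libraries. The log2 fold change was 1.11 with an SE of 0.25 (limma-trend adjusted p = 0.147, n = 3 per group), and 1.31 without Tamoxifen 1 (limma-trend adjusted p = 0.0108). The α chains that pair with it did not share this direction. Itga4 was at 16.3, 12.4 and 13.6 FPKM in Tamoxifen 1, 2 and 3, against 18.8, 16.1 and 19.6 FPKM in Oil. Itgae was near 0, between 0.0793 and 0.181 FPKM with tamoxifen and between 0.0941 and 0.171 FPKM in Oil. Itgb1, the other β chain that pairs with Itga4, was at 170, 186 and 194 FPKM with tamoxifen, against 174, 174 and 168 FPKM in Oil.

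Itgal, the α chain of LFA-1, which binds Icam1, Icam2 and F11r (chromosome 7, 127296260 to 127335138, plus strand), lay on the lower side. It was at 16.3, 19.4 and 16.9 FPKM in Tamoxifen 1, 2 and 3, against 28.7, 22.8 and 24.7 FPKM in Oil 1, 2 and 3. All Tamoxifen libraries were below all Oil libraries, and Tamoxifen 1 was the lowest. The log2 fold change was -0.51 with an SE of 0.11 (limma-trend adjusted p = 0.147, n = 3 per group), and -0.46 without Tamoxifen 1 (limma-trend adjusted p = 0.0274).

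F11r encodes junctional adhesion molecule A, which sits at cell junctions and on leukocytes and binds itself and LFA-1 (chromosome 1, 171437535 to 171464603, plus strand). It was at 15.4, 17.0 and 16.8 FPKM in Tamoxifen 1, 2 and 3, against 30.4, 25.8 and 23.9 FPKM in Oil 1, 2 and 3. The Tamoxifen libraries agreed closely, with a coefficient of variation of 5.30% with tamoxifen and 12.5% in Oil, and Tamoxifen 1 did not stand apart from the other Tamoxifen libraries. F11r had the smallest p of the 8, with a log2 fold change of -0.66 with an SE of 0.10 (limma-trend adjusted p = 0.147, n = 3 per group), and -0.62 without Tamoxifen 1 (limma-trend adjusted p = 0.00892). The genes whose centred log2(FPKM + 1) profile over the 6 libraries was nearest to that of F11r, among 10919 others, were Igfbp4, Tbc1d4 and Itgal, with root mean square distances of 0.057, 0.095 and 0.113 log2 units. Igfbp4, which binds insulin-like growth factors, was at 22.6, 23.8 and 26.7 FPKM with tamoxifen, against 44.5, 36.4 and 34.6 FPKM in Oil.

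The 3 remaining members had overlapping groups. Icam1, the ligand of LFA-1 and Mac-1 that inflammatory signals induce (chromosome 9, 21015985 to 21028817, plus strand), was at 50.4, 66.3 and 62.5 FPKM in Tamoxifen 1, 2 and 3, against 61.5, 53.8 and 67.7 FPKM in Oil 1, 2 and 3. Its log2 fold change was -0.03 with an SE of 0.13 (limma-trend adjusted p = 0.885, n = 3 per group), with Tamoxifen 1 the lowest of the 6 libraries, and the sign turned to 0.08 without that library and to 0.04 without Oil 3. An antisense gene, Gm47079, overlaps Icam1 and averaged 0.0901 FPKM, and without a stated strand setting their reads cannot be told apart. Selplg, which encodes PSGL-1 (chromosome 5, 113818536 to 113832644, minus strand), was at 50.3, 39.5 and 40.9 FPKM in Tamoxifen 1, 2 and 3, against 45.7, 46.4 and 52.9 FPKM in Oil 1, 2 and 3. Tamoxifen 2 and 3 lay below every Oil library and Tamoxifen 1 among them. Its log2 fold change was -0.15 with an SE of 0.11 (limma-trend adjusted p = 0.412, n = 3 per group), and -0.26 without Tamoxifen 1 (limma-trend adjusted p = 0.056). Pecam1 (CD31), an adhesion receptor of endothelial cells, platelets and leukocytes (chromosome 11, 106654217 to 106750628, minus strand), was scarce, at 1.61, 2.14 and 1.96 FPKM in Tamoxifen 1, 2 and 3, against 2.15, 2.14 and 2.14 FPKM in Oil 1, 2 and 3. Its log2 fold change was -0.12 with an SE of 0.10 (limma-trend adjusted p = 0.452, n = 3 per group), and -0.05 without Tamoxifen 1 (limma-trend adjusted p = 0.709). Between 221 and 341 reads lay behind each of its values, so that the coefficient of variation of 0.293% in Oil is smaller than the counting error of up to 6.73% and cannot be taken as its precision. The other members had at least 821 reads in every library.

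**Figure D2:**
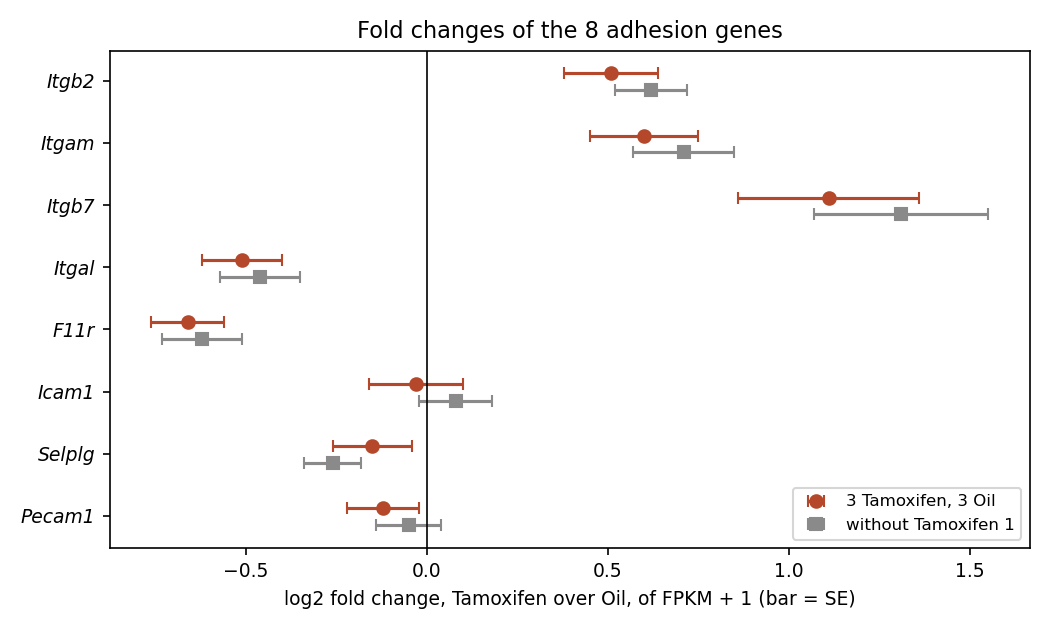
Log2 fold change of FPKM + 1, tamoxifen over oil, for each adhesion gene. Circles use 3 libraries per group and squares leave out Tamoxifen 1, and bars are standard errors. Itgb7 is farthest to the right at 1.11 and F11r farthest to the left at -0.66, and Icam1 lies on either side of 0.

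The order of the levels differed in part between the groups. With tamoxifen it ran Itgb2, Itgam, Icam1, Itgb7, Selplg, Itgal, F11r and Pecam1, and in this order the libraries of neighbours overlapped from Itgam through Selplg and again for Itgal and F11r. In Oil it ran Itgb2, Icam1, Itgam, Selplg, F11r, Itgal, Itgb7 and Pecam1, and neighbours overlapped for Itgam and Selplg and for F11r and Itgal. Itgb7 was thus below F11r and Itgal in every Oil library and above them in every Tamoxifen library.

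The α chains that pair with Itgb2 were compared as shares of their summed FPKM within a library, a measure that scaling of the library does not affect. Itgam made up 58.8%, 72.6% and 65.0% of the sum in Tamoxifen 1, 2 and 3, against 40.8%, 50.6% and 45.7% in Oil 1, 2 and 3, with no overlap. Itgal made up 14.8%, 14.7% and 15.9% with tamoxifen, against 24.6%, 22.6% and 22.6% in Oil, again with no overlap. Itgax, a chain found on dendritic cells and some macrophages, made up 26.2%, 12.6% and 19.0% with tamoxifen, against 34.6%, 26.7% and 31.6% in Oil, where Tamoxifen 1 lay just below Oil 2. The differences in mean share were 19.8, -8.13 and -11.7 percentage points for Itgam, Itgal and Itgax. Each had an exact two-sided permutation p of 0.1, the smallest that 3 against 3 libraries allow, and a Benjamini-Hochberg adjusted p of 0.1 over the 4 comparisons of this kind. Shares of 1 sum depend on each other, so a higher share of Itgam leaves less for Itgal and Itgax. The levels of Itgam and Itgal had already separated the groups, so the separated shares are no independent result. Itgad was below 0.1 FPKM in every library.

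The sum of the α chains was also set against Itgb2. The log2 ratio of their summed FPKM to the FPKM of Itgb2 was -1.46, -1.67 and -1.67 in Tamoxifen 1, 2 and 3, against -1.06, -1.32 and -1.15 in Oil 1, 2 and 3. The mean was -1.60 ± 0.12 with tamoxifen and -1.18 ± 0.13 in Oil (SD, n = 3 each, exact two-sided permutation p = 0.1, adjusted p = 0.1). The groups did not overlap. The levels of Itgb2 and Itgal had already separated the groups, so the separated ratio is no independent result either. The lack of overlap held for the sum and not for each chain. The ratio of Itgam to Itgb2 was 0.214, 0.228 and 0.205 with tamoxifen, against 0.196, 0.203 and 0.206 in Oil, with overlapping groups. The ratio of Itgal to Itgb2 was 0.0540, 0.0462 and 0.0501 with tamoxifen, against 0.118, 0.0907 and 0.102 in Oil, and that of Itgax was 0.0955, 0.0397 and 0.0599 with tamoxifen, against 0.166, 0.107 and 0.1425 in Oil, both without overlap. The 4 α chain genes lie on the plus strand of chromosome 7, with 727501 bases between Itgal and Itgam, 11055 between Itgam and Itgax and 3718 between Itgax and Itgad. The neighbours Itgam and Itgax had fold changes of opposite sign, 0.60 and -0.62 on the log2 scale. By level the groups overlapped for Itgax, at 28.8, 16.7 and 20.2 FPKM with tamoxifen, against 40.4, 26.8 and 34.5 FPKM in Oil. The SE of its fold change was 0.22 (limma-trend adjusted p = 0.164, n = 3 per group).

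**Figure D3:**
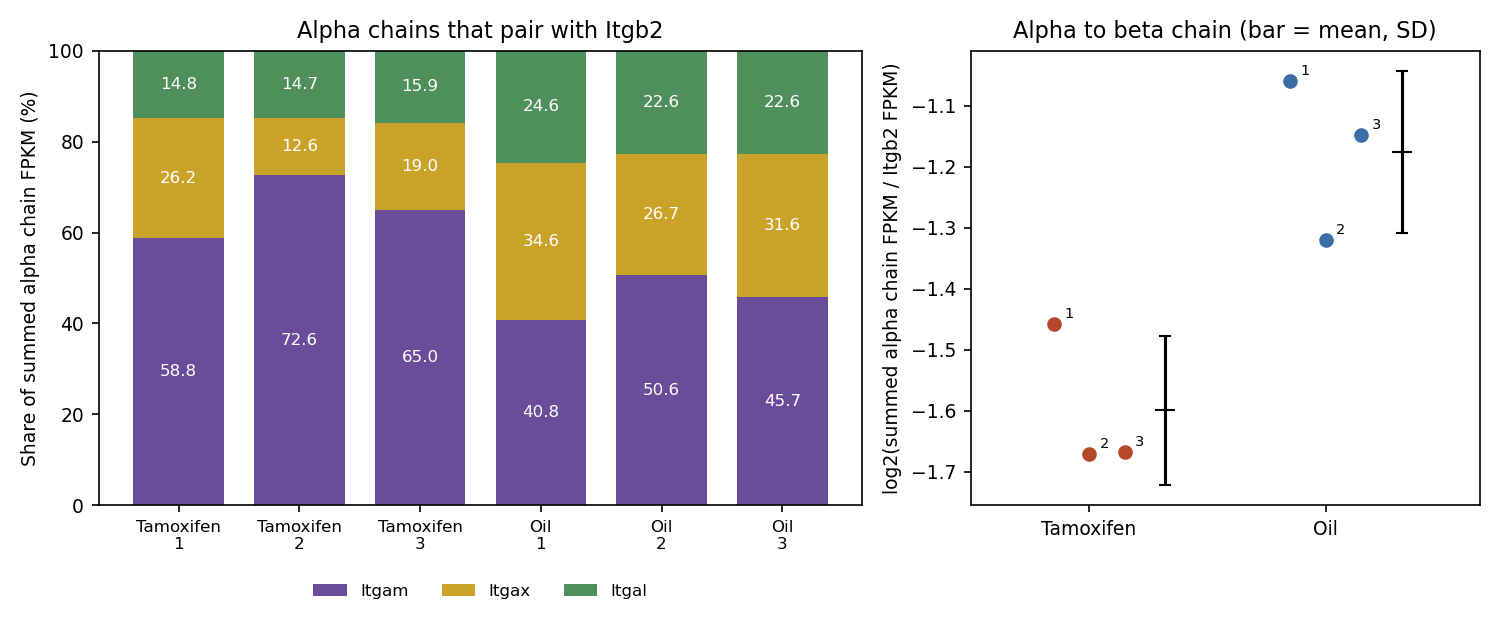
Left, share of Itgam, Itgax and Itgal in the summed FPKM of the α chains that pair with Itgb2, in percent for each library. Itgad, below 0.1 FPKM, is in the sum but too small to draw. Right, log2 ratio of that sum to Itgb2, with numbered libraries, mean and SD. Itgam holds 58.8% to 72.6% with tamoxifen and 40.8% to 50.6% in Oil.

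Other genes of leukocyte adhesion were grouped in 4 lists, and 0 members of any list passed over all genes by limma-trend. Among all genes tested, 13.2% were higher and 11.7% lower at an unadjusted p under 0.05, and the median log2 fold change was 0.02. Of 22 other integrin chains 9 were measured at a mean of 1 FPKM or more, and 1 was higher and 5 were lower at that unadjusted p, with a median of -0.35. Those with the smallest p were Itgb5, the β chain of the vitronectin receptor αvβ5, at 170, 108 and 126 FPKM with tamoxifen, against 228, 204 and 190 FPKM in Oil, then Itga9, at 18.3, 5.16 and 8.42 FPKM with tamoxifen, against 28.9, 21.8 and 23.1 FPKM in Oil, and then Itga4 (values above). The chain on the higher side, named after its values were seen, was Itga5, part of the fibronectin receptor α5β1, at 66.1, 95.5 and 91.6 FPKM with tamoxifen, against 56.4, 60.5 and 68.0 FPKM in Oil. Without Tamoxifen 1, 1 chain passed over all genes on the higher side and 5 on the lower side. In that fit 17.4% of all genes tested were higher and 14.5% lower, which holds for the counts without Tamoxifen 1 of the next 3 lists as well.

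Of 19 further ligands and junction molecules 8 were measured, with 4 higher and 2 lower at the unadjusted p and a median of 0.16. Alcam (CD166), an adhesion molecule of the immunoglobulin family, was at 22.8, 32.2 and 30.2 FPKM with tamoxifen, against 18.4, 18.9 and 18.2 FPKM in Oil. On the lower side stood Cd99l2, at 4.82, 3.63 and 4.16 FPKM with tamoxifen, against 6.28, 6.08 and 5.81 FPKM in Oil. Vcam1, the ligand of α4β1, was at 1.04, 0.921 and 0.749 FPKM with tamoxifen, against 2.50, 1.29 and 2.33 FPKM in Oil. In each of these genes the groups did not overlap. Without Tamoxifen 1, 3 ligands were higher and 2 lower over all genes.

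Of 13 selectins, selectin ligands and enzymes that build them 10 were measured, with 2 higher and 2 lower at the unadjusted p and a median of 0.09. Glg1, a ligand of E-selectin, was at 44.4, 51.8 and 50.4 FPKM with tamoxifen, against 37.5, 39.7 and 41.2 FPKM in Oil. St3gal4, a sialyltransferase that acts on selectin ligands, was at 12.6, 11.6 and 10.3 FPKM with tamoxifen, against 13.5, 13.6 and 14.2 FPKM in Oil. Spn (CD43), a sialylated surface protein of leukocytes, was at 4.71, 2.36 and 3.28 FPKM with tamoxifen, against 6.32, 4.52 and 5.39 FPKM in Oil, with overlapping groups. Without Tamoxifen 1, 2 of these genes were higher and 2 lower over all genes.

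Of 35 genes of integrin activation and signalling 29 were measured, with 10 higher and 4 lower at the unadjusted p and a median of 0.04. Vav2, a guanine nucleotide exchange factor, was at 8.36, 2.92 and 4.40 FPKM with tamoxifen, against 13.1, 12.5 and 11.9 FPKM in Oil. Its log2 fold change was -1.21. Rasgrp4, an exchange factor for Ras, was at 5.38, 8.20 and 7.64 FPKM with tamoxifen, against 4.26, 4.62 and 3.63 FPKM in Oil. Apbb1ip (RIAM) links the GTPase Rap1 to talin. It was at 25.6, 26.4 and 25.0 FPKM with tamoxifen, against 20.8, 22.2 and 20.3 FPKM in Oil. Fermt3 (kindlin-3), which β2 integrins need for activation, is named here for that role and after its values were seen, and was at 115, 115.5 and 104 FPKM with tamoxifen, against 110, 109 and 105 FPKM in Oil. Without Tamoxifen 1, 9 genes of this list were higher and 7 lower over all genes.

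**Figure D4:**
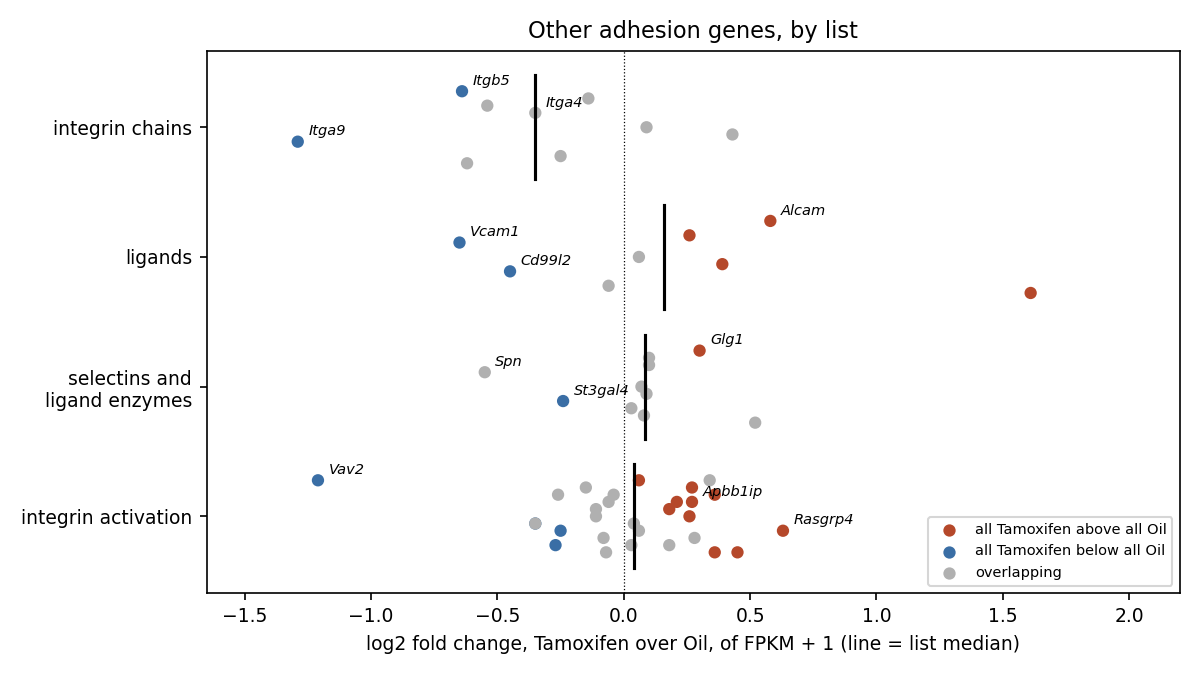
Log2 fold change of FPKM + 1, tamoxifen over oil, of the measured genes of 4 adhesion lists that do not hold the 8 members. Each point is a gene, red where all Tamoxifen libraries lie above all Oil libraries, blue where all lie below and grey where they overlap, and black lines are list medians. The 3 genes with the smallest p in each list are named, and the median of the integrin chains lies at -0.35.

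Markers of other cells that carry these molecules were read beside the members, as summed FPKM. The 10 neutrophil markers summed to 37.6, 294 and 83.6 FPKM in Tamoxifen 1, 2 and 3, against 34.5 to 36.6 FPKM in Oil, and 5 of them were measured at a mean of 1 FPKM. The high sums were carried by S100a8, at 4.12, 154 and 40.4 FPKM with tamoxifen, against 2.64, 3.04 and 1.52 FPKM in Oil, and by S100a9, at 0.696, 120 and 25.5 FPKM with tamoxifen, against 0.826, 2.07 and 0.525 FPKM in Oil. Csf3r, the receptor of the growth factor G-CSF and most of the sum in Oil, was at 30.3, 15.2 and 14.6 FPKM with tamoxifen, against 27.3, 28.7 and 28.2 FPKM in Oil. Mpo and Ltf overlapped between the groups, at no more than 1.29 FPKM with tamoxifen and 1.64 FPKM in Oil, and so did Retnlg, Elane and Ngp. Cxcr2 overlapped as well but was highest in Tamoxifen 2 and 3, at 0.104, 0.923 and 0.475 FPKM with tamoxifen, against 0.195, 0.236 and 0.0514 FPKM in Oil. Camp was lower in every Tamoxifen library, at no more than 0.0599 FPKM with tamoxifen, against 0.142 to 0.271 FPKM in Oil. Its values rest on 0 or 1 reads with tamoxifen and 2 to 4 in Oil. Neutrophils are rich in Itgb2 and Itgam. Both genes were highest in Tamoxifen 2, the library with the highest neutrophil sum, and both stood above every Oil library in Tamoxifen 1. The sum of 37.6 FPKM in Tamoxifen 1 was mostly Csf3r, and S100a8, at 4.12 FPKM, was above every Oil library there too. The part of neutrophil RNA in their levels was not tested. The 7 dendritic cell markers summed to 4.60 to 6.57 FPKM with tamoxifen and 8.93 to 14.3 FPKM in Oil, and 3 of them were measured at a mean of 1 FPKM. For 4 of the 7 all Tamoxifen libraries lay below all Oil libraries, as for 13.8% of all genes tested. Of these 4, Flt3 and Clec9a averaged under 1 FPKM. The part of dendritic cell RNA in the levels of Itgax, Itgal and Itgb7 was not tested. The 8 T and NK cell markers summed to 1.69 to 2.77 FPKM with tamoxifen and 1.76 to 2.16 FPKM in Oil. Trbc2 and Ncr1 were at 0 in all 6 libraries. The 5 B cell markers summed to 4.29 to 5.26 FPKM with tamoxifen and 5.18 to 5.93 FPKM in Oil. The 5 mast cell markers summed to at most 0.2205 FPKM with tamoxifen and 0.209 FPKM in Oil, with Mcpt4 and Fcer1a at 0. The 8 endothelial markers summed to 5.19 to 6.69 FPKM with tamoxifen and 4.54 to 6.47 FPKM in Oil. The 5 platelet markers summed to 479 to 652 FPKM with tamoxifen and 652 to 724 FPKM in Oil, almost all of it Pf4. The platelet integrin chain Itga2b was at most 0.383 FPKM with tamoxifen and 0.402 FPKM in Oil. Gp1ba and Gp9 were below 1 FPKM in every library, and Ppbp was at most 4.79 FPKM with tamoxifen and 3.18 FPKM in Oil. Which cells the Pf4 RNA came from was not tested. The 5 fibroblast markers summed to 12.6 to 30.6 FPKM with tamoxifen and 18.3 to 20.3 FPKM in Oil. The 5 muscle markers summed to 1.28 to 2.70 FPKM with tamoxifen and 3.84 to 8.17 FPKM in Oil. The 8 macrophage markers summed to 8710 to 9750 FPKM with tamoxifen and 10854 to 12541 FPKM in Oil. Lyz2 made up most of both sums, at 7399, 7040 and 6774 FPKM with tamoxifen, against 10193, 8548 and 9289 FPKM in Oil. Of the 8 macrophage markers 3 (Lyz2, Csf1r and Ptprc) were below every Oil library in all Tamoxifen libraries and 1 was above, the Fc receptor gene Fcgr1, at 164, 158 and 150 FPKM with tamoxifen, against 116.5, 133 and 139 FPKM in Oil. Among all genes tested 13.8% lay below and 16.2% above in this way.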

How the data were processed

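RNA of sorted macrophages was sequenced in 3 libraries per group, grouped by title and treatment label. The deposited values are FPKM per gene, made by the authors. Per the submitters' processing notes, the build was GRCm38.p6. Aligner, counter, annotation, strand setting and treatment of multi-mapped reads were not given in the sources used here. Of 54183 lines, 382 without a gene name and 27 with a date as name were left out (0.253% to 0.289% of summed FPKM). FPKM times the exon length of the GENCODE M21 gene came out as whole multiples of 1 step (within 0.02 reads) for at least 95.0% of values of up to 1000 reads, which gave the depth and the reads per gene. Intervals of reads cover counting error only.

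Tamoxifen was compared with Oil by limma-trend on log2(FPKM + 1), which understates the change of low genes, over genes that averaged 1 FPKM or more. Two-sided p-values were adjusted by Benjamini-Hochberg over all genes tested (threshold 0.05). All 8 members passed the filter. Shares and ratios had exact permutation tests. The members and lists were chosen with earlier results of these data known. Named are the members, the check genes, the 3 genes of each list with the smallest p, and the 3 nearest profiles to the member with the smallest p. A gene of the lists is not reported here and was left out of the list counts. Marker lists were summed over all genes found. Alternatives were other pseudocounts, filters, scalings and variance models, limma-voom on recovered reads, a block by replicate number and leaving out each library. The sum of both lines named Itgam was an alternative chosen after seeing the data. Simulated data were used to test the fit. R 4.3.3, limma 3.58.1, Python 3.11, pandas 2.3.3, NumPy 2.4.6 and SciPy 1.17.1 were used.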

Additional observations from a re-analysis of the deposited data

How the results depend on the processing

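Itgb2, Itgam, Itgb7, Itgal and F11r kept their direction under all 18 alternatives, with log2 fold changes of 0.38 to 0.62, 0.42 to 0.71, 0.82 to 1.31, -0.58 to -0.42 and -0.74 to -0.56, and passed over all genes in 1 of them, without Tamoxifen 1. The limma adjusted p ran from 0.00802 to 0.428 over these genes and alternatives, with both ends from limma-trend. Icam1 lay between -0.12 and 0.08 with 1 library left out, above 0 without Tamoxifen 1 (0.08) and without Oil 3 (0.04), and Pecam1 could not be tested with the filter at 5 FPKM. Leaving out 1 library gave between 0 and 5 members past the threshold, between 0 and 1901 genes higher and between 0 and 1583 lower, the high ends without Tamoxifen 1. The filter at 5 FPKM gave 1 gene higher and 4 lower, and no filter gave 0 higher and 1 lower. The replicate block gave 11 higher and 22 lower and 0 members. Deviations of same-numbered libraries correlated at 0.261, 0.0884 and 0.00397 over 10920 genes, so the numbers were not taken as pairs. Shares and ratios of the Itgb2 family kept their direction under each alternative. The replicate block left the mean share differences at 19.8, -8.13 and -11.7 points for Itgam, Itgal and Itgax, with an exact p of 0.25, the smallest possible. With 3 libraries per group and this spread, p-values of single genes rest on few degrees of freedom, and depth limits Pecam1 most.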

Other observations

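Fibronectin (Fn1) and its receptor chain Itga5, named here after their values were seen, both had fold changes above 0. Itgb1, the β chain of α5β1, had a log2 fold change of 0.09 with overlapping groups. Of the 9 integrin chains measured in the list, Itga5 was the 1 higher at an unadjusted p under 0.05, and 5 were lower. Fn1 was at 82.1, 360 and 205 FPKM in Tamoxifen 1, 2 and 3, against 40.5, 63.4 and 80.1 FPKM in Oil 1, 2 and 3, with a log2 fold change of 1.61 and an SE of 0.52 (limma-trend adjusted p = 0.157). Tamoxifen 1 was only just above Oil 3 for Fn1, and for Itga5 it lay at 66.1 FPKM, below Oil 3 at 68.0 FPKM. The fibroblast markers summed to 12.6, 30.6 and 23.5 FPKM in Tamoxifen 1, 2 and 3, against 19.6, 18.3 and 20.3 FPKM in Oil. The part of fibroblast RNA in the level of Fn1 was not tested.

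Among the 8 adhesion genes, the nearest pair of centred log2(FPKM + 1) profiles was Itgam and Itgb2, the chains of Mac-1, with a root mean square distance of 0.066 log2 units over 6 libraries. Itgal and Itgb2, the chains of LFA-1, were at a distance of 0.524, and Itgb7 and F11r were farthest apart at 0.953. These distances are descriptions of 6 libraries.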
